A study of Mus musculus with 8 samples.

Results

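In mouse embryonic fibroblasts (MEFs) at day 5 of reprogramming with NanogBiD and Oct4, the peaks of H3K27ac and H3K4me1 were merged wherever they overlapped or touched, which gave 68359 regions. Of these, 12139 held H3K27ac peaks and no H3K4me1 peak and are called acetylated-only, 30322 held both marks and are called active, and 25898 held H3K4me1 peaks and no H3K27ac peak and are called primed. Merging the peaks of all 8 lists of the study gave 123412 regions, of which 67059 overlapped one of these. The names active and primed are those in general use for such combinations of marks, and no transcription was measured here. All values come from CUT&Tag, in which an antibody tethers a transposase to its target so that the DNA around it is tagged for sequencing. The cells were OG2 MEFs, which carry a GFP reporter driven by Oct4 (Pou5f1) regulatory sequence, infected with retroviruses for Oct4 and for FLAG-tagged NANOG. NanogBiD is NANOG fused at its N-terminus to the domain of SS18 that binds BRG1, and the comparison arm received Oct4 with unfused Nanog (NanogWT), so that both arms share Oct4. The labels call the fusion arm NanogN70, and its identity with NanogBiD is taken from the study's text. The labels give the antibody of the primed mark as H3K4me in one field and as H3K4me1 in the sample title. Replicates were merged by the authors before peak calling, so each target had 1 list per arm and no test between groups or arms could be made. Shares are given with Wilson 95% intervals, which cover counting error only.

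H3K27ac is laid down by the acetyltransferases p300 and CBP and marks promoters and enhancers in use. H3K4me1 is laid down mainly by KMT2C and KMT2D (MLL3 and MLL4) and spreads over enhancers, including those that are occupied but not acetylated, and over the flanks of promoters, whose centres usually carry H3K4me3 instead. BRG1 (Smarca4) is the ATPase of the BAF complex, which slides and evicts nucleosomes, and SS18 is one of its subunits.

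Sequence around high-scoring summits is shown first for promoters, since the base content of the 3 classes differed there. For each class this is the region with the highest peak score, scored in active regions by the lower of its 2 mark scores, among those whose summit window held no UTR or tRNA gene, with 1 ribosomal RNA-like locus set aside. The windows span 201 bases of the plus strand of mm10 (GRCm38), centred on the H3K27ac summit, or on the H3K4me1 summit in the primed region, and capitals mark matches to the AP-1 site TGANTCA, the GC box GGGCGG or the ETS site CCGGAAG on either strand.
Acetylated-only promoter at Cul5, chr9:53667086-53667286: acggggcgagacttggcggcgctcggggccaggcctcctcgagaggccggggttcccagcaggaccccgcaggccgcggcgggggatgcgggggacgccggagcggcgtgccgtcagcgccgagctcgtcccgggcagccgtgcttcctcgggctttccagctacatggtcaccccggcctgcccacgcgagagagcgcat
Active promoter at Gm15287, chr13:111725497-111725697: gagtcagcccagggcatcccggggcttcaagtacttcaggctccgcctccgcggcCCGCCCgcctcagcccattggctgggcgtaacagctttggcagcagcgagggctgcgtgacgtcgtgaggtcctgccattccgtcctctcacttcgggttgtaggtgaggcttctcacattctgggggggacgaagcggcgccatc
Primed promoter at Rassf10, chr7:112953756-112953956: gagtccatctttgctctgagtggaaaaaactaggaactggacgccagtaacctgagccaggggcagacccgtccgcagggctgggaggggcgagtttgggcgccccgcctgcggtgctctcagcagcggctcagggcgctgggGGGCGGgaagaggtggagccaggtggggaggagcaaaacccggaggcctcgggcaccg
The first window lay in an exon of Cul5, the scaffold of a ubiquitin ligase. Its summit lay 2.828 kb from the start of Cul5 and 60 bp from that of the antisense transcript Gm16124, the nearer one. This window held 27 CpG dinucleotides at 75.6% GC. The summit heights of its region (chr9:53666112-53668030) were 41 for H3K27ac, 23 for BRG1 and 24 for FLAG, where height is the number of tags piled up at the summit. The second, in an exon of the antisense RNA Gm15287, held 16 CpG and 1 GC box, and its region (chr13:111724729-111726357) reached 37 for H3K27ac, 25 for H3K4me1, 43 for BRG1 and 56 for FLAG. The third lay 106 bp upstream of Rassf10, a Ras association domain gene, and held 13 CpG and 1 GC box. Its region (chr7:112953502-112955954) had an H3K4me1 height of 18 with no peak of BRG1 or FLAG, so a CpG-rich promoter was found in every class.

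Away from promoters the AP-1 site was in more summit windows of each class than any of the other motifs searched, so the highest-ranked distal region of each class with an AP-1 match at its summit is shown in the same way. AP-1 factors are dimers of FOS and JUN proteins and are abundant in fibroblasts.
Acetylated-only distal, chr6:98901376-98901576: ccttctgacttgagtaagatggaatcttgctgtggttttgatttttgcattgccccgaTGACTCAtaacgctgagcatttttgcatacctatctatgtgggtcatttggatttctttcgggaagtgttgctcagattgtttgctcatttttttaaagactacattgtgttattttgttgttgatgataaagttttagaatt
Active distal, chr11:7423717-7423917: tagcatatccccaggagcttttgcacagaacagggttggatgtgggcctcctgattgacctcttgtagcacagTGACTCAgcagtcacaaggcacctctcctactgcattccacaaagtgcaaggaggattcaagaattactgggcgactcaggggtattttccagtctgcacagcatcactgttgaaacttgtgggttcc
Primed distal, chr5:35448009-35448209: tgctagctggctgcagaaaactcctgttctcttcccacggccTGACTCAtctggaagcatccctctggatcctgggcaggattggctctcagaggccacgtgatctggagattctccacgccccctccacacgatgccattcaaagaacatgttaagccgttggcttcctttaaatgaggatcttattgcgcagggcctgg
The acetylated-only window lay between genes, 558.722 kb from the start of Gm765, and its region had heights of 20 for H3K27ac, 14 for BRG1 and 23 for FLAG. The active window lay 209.894 kb from Igfbp3, an insulin-like growth factor binding protein, with heights of 23 for H3K27ac, 20 for H3K4me1, 17 for BRG1 and 21 for FLAG. The primed window lay 59.001 kb from Hmx1, a homeobox gene, with heights of 16 for H3K4me1, 11 for BRG1 and 10 for FLAG. In NanogWT this primed region carried H3K27ac too, at a height of 11 beside 21 for H3K4me1. The active region had the very same pair of heights in NanogWT, and the acetylated-only region had 20 for H3K27ac and 14 for H3K4me1, so all 3 regions carried both marks there.

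In the full lists, most regions with H3K27ac carried H3K4me1, and close to as many H3K4me1 regions were without H3K27ac as with it. Active regions made up 44.4% of the 68359 (44.0 to 44.7), primed regions 37.9% (37.5 to 38.2) and acetylated-only regions 17.8% (17.5 to 18.05). Of the regions with H3K27ac, 71.4% also held H3K4me1 (71.0 to 71.8), and of those with H3K4me1, 53.9% also held H3K27ac. Active regions covered 50.7 Mb against 21.7 Mb for primed and 15.2 Mb for acetylated-only regions. The first of these majorities was lost in other settings. With peak scores of 100 or more, active regions numbered 11909 and acetylated-only regions 12738, and with summit windows 20454 and 22144, beside 36702 primed ones. In NanogWT, with 35452 H3K27ac peaks and 72242 H3K4me1 peaks against 42598 and 57156 in NanogBiD, the classes held 28100 active, 43024 primed and 7164 acetylated-only regions. Lists of unequal length move these shares, and the depth of the libraries is unknown, so a difference in class sizes between arms cannot be told apart from a difference in depth. A class also depends on where the peak caller stopped. The single peak score lay below 60, near the lowest value of 50, in 29.9% of primed and 23.5% of acetylated-only regions, against 8.05% of active regions for H3K27ac and 10.9% for H3K4me1.

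Active regions lay at promoters most often, and primed regions least. Promoters here are the 2 kb either side of any annotated transcript start, which together cover 10.9% of chromosomes 1 to 19 and X. They were overlapped by 44.6% of active regions (44.0 to 45.1), 27.3% of acetylated-only regions (26.5 to 28.1) and 21.4% of primed regions (20.9 to 21.9). These shares depended on the peaks admitted and are higher among strong peaks. They were 58.4%, 46.6% and 33.4% with a score of 100 or more, and 61.9%, 53.7% and 33.5% with the best 20000 peaks of each list. The order of active before acetylated-only and primed can be set against the spread over autosomes, where the share ran from 34.9% to 52.0% in active regions, from 19.6% to 32.8% in acetylated-only regions and from 17.1% to 29.2% in primed regions. The ranges of active regions and of the other classes thus did not overlap, whereas those of acetylated-only and primed regions did. Introns held 39.7% of primed, 39.0% of acetylated-only and 27.8% of active regions, and sequence between genes 35.8%, 31.0% and 25.5%. Outside promoters the classes lay at similar distances from the nearest protein-coding start, with medians of 54775 bp for active, 60387 bp for primed and 61948 bp for acetylated-only regions.

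Active regions were also the widest and had the tallest peaks. The width of an active region is that of a merged pair of peaks, so it is at least that of either peak. The median width was 1447 bp in active, 944 bp in acetylated-only and 733 bp in primed regions, and the same order held at promoters (1805, 1397 and 888 bp) and away from them (1219, 855 and 706 bp). Single H3K27ac peaks had a median width of 1252 bp in active and 944 bp in acetylated-only regions, and single H3K4me1 peaks 1064 bp in active and 733 bp in primed regions. When each list was cut to its best 20000 peaks, acetylated-only regions were the wider, at 1783 bp against 1744 bp for active ones. The median H3K27ac height was 17 in active and 13 in acetylated-only regions, and the median H3K4me1 height was 15 in active and 12 in primed regions. At promoters the H3K27ac medians were 23 and 17, and at distal regions 15 and 13. Taller peaks were also wider, so widths were set side by side at fixed heights. For H3K27ac peaks the order changed with height. At 12 tags the median was 832 bp in active and 785 bp in acetylated-only regions, at 16 tags 1130 and 1149 bp, and at 20 tags 1422 and 1523 bp. For H3K4me1 peaks the order was kept at fixed height. At 12 tags the median was 883 bp in active and 703 bp in primed regions, and at 20 tags it was 1246 and 1068 bp.

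**Figure D1:**
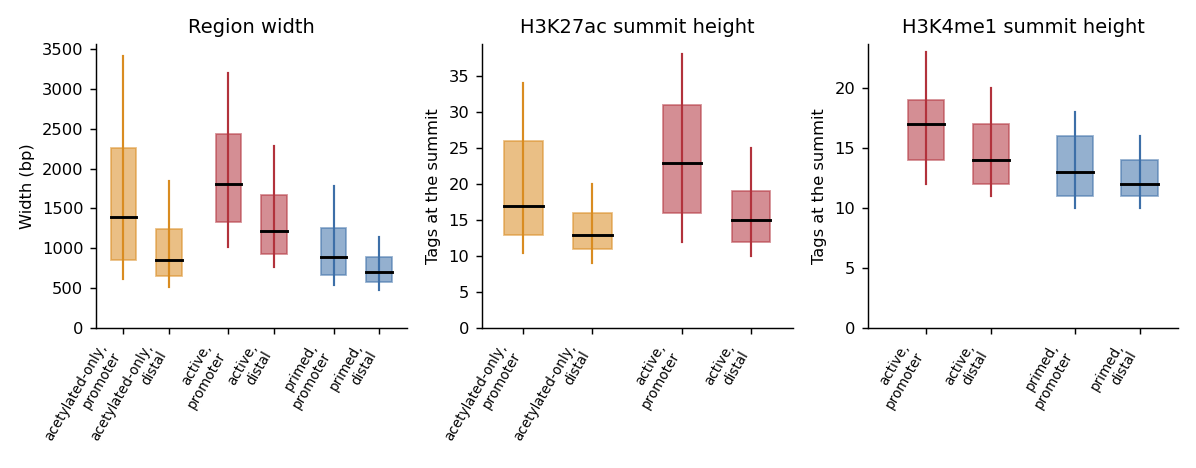
Region width in bp, H3K27ac summit height and H3K4me1 summit height (tags) by class, at promoters and at distal regions; boxes span the middle 50% of regions, lines mark the median and whiskers the 10th and 90th percentiles. Active promoter regions were the widest, with a median of 1805 bp, and primed distal regions the narrowest, with 706 bp.

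The plot of widths and heights shows how far the classes overlap: the middle of each distribution differed, but no width or height separated one class from another. Within active regions the 2 marks were close in position and loosely related in height. The H3K27ac and H3K4me1 summits were a median of 122 bp apart, and 66.6% were within 200 bp. The heights had a Spearman correlation of 0.476 across the 30322 active regions, a description over regions that share their libraries, and 0.394 at promoters. The balance of the marks depended on the distance to a protein-coding start. The median log2 ratio of H3K27ac to H3K4me1 height was 0.58 within 500 bp of a start, 0.25 at 1000 to 2000 bp and 0.06 beyond 100 kb. Heights are not scaled between libraries, so the ratios can be read against each other but not against 0.

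Around protein-coding starts the summits of the 2 marks took different places. Of all H3K27ac summits, 15.1% lay within 200 bp of a start, against 10.6% of H3K4me1 summits. Over the 2 kb downstream of a start the shares were 16.3% for H3K27ac and 10.6% for H3K4me1, and over the 2 kb upstream 9.08% and 9.87%. The H3K27ac summits were therefore concentrated just inside the transcribed side, with a median offset of 72 bp downstream, while H3K4me1 summits of all regions together had a median offset of 9 bp downstream. By class, downstream shares were counted for the H3K27ac summits of acetylated-only and active regions and the H3K4me1 summits of primed regions. The H3K4me1 summits of active regions were not counted on their own. Of the summits within 2 kb of a start, 69.0% lay downstream in acetylated-only regions and 63.1% in active regions for H3K27ac, and 67.7% in primed regions for H3K4me1.

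**Figure D2:**
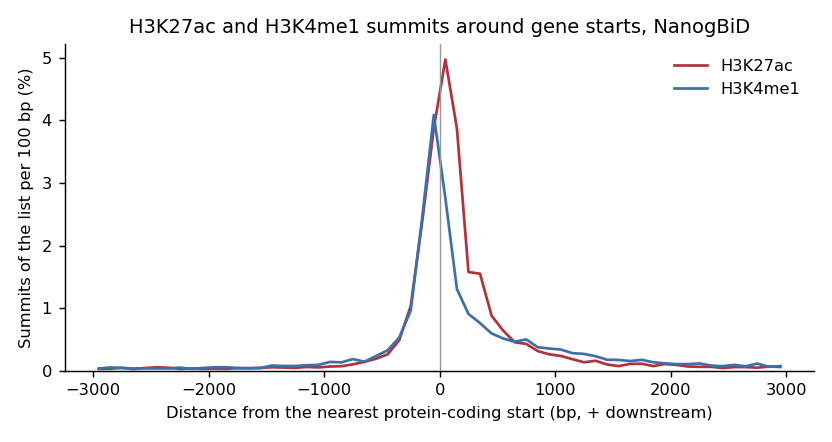
Share of each list's summits (percent per 100 bp) against the distance in bp from the nearest protein-coding transcription start, with positive distances downstream, for H3K27ac and H3K4me1 in NanogBiD. H3K27ac reached its highest bin, 4.97%, just downstream of the start, and H3K4me1 its highest, 4.09%, just upstream.

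In the profile of summits around starts, the 100 bp upstream held similar shares of both marks, 3.87% for H3K27ac and 4.09% for H3K4me1, and the 100 bp downstream 4.97% and 2.76%. At promoters the classes also differed in base content. A window of 501 bases around the H3K27ac summit, or the H3K4me1 summit in primed regions, was CpG-rich (GC of at least 50% and an observed over expected CpG ratio of at least 0.6) in 60.3% of active, 40.5% of acetylated-only and 23.3% of primed promoter regions, against 47.9% of all protein-coding starts. At the H3K4me1 summits of active promoter regions the share was 51.9%. Away from promoters the shares were 2.35%, 0.680% and 1.54%.

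The motifs marked in the printed windows were counted over all regions. Unless stated otherwise, motif shares are for 201 bases centred on the H3K27ac summit, or on the H3K4me1 summit in primed regions, both strands. For AP-1 and the OCT octamer they are set beside windows of the same length 5 kb away. At distal regions the AP-1 site TGANTCA was present in 20.5% of active (19.9 to 21.1), 17.4% of acetylated-only (16.6 to 18.2) and 14.01% of primed regions (13.5 to 14.5), against 6.16%, 5.81% and 6.09% of windows 5 kb away. At the H3K4me1 summits of active distal regions the share was 20.2%. Within 50 bp of the summit the site was in 11.6%, 9.37% and 7.77%, in the same order of classes. At promoter regions the order was another, with 9.27% of acetylated-only, 8.02% of primed and 6.42% of active regions. Windows 5 kb away from these held it in 5.50%, 5.71% and 5.95%. The site was in 4.14% of all protein-coding starts. The GC box GGGCGG, bound by SP and KLF factors, was in 42.8% of active, 27.2% of acetylated-only and 19.3% of primed promoter regions, and in 40.4% of all starts. The ETS site CCGGAAG, typical of housekeeping promoters, was in 8.98%, 6.31% and 1.90% of them, and in 9.67% of all starts. Matches of CTCF, an insulator protein, had another order at distal regions, in which primed regions were highest and acetylated-only regions lowest. They were in 2.11% of primed (1.92 to 2.32) and 0.578% of acetylated-only regions (0.440 to 0.760), with 1.17% of active regions at the H3K27ac summit and 1.80% at the H3K4me1 summit. The OCT octamer ATGCAAAT was in 3.68% of active, 3.05% of acetylated-only and 2.48% of primed distal regions, against 1.13%, 1.36% and 1.48% in windows 5 kb away. Of all protein-coding starts, 0.887% held the octamer and 0.386% a CTCF match. A match of these letters does not show that a factor was bound.

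BRG1 and FLAG were measured with other antibodies and were not used to define the classes. Acetylated chromatin of both kinds carried BRG1 far more often than primed chromatin did. A BRG1 peak overlapped 83.3% of active regions (82.8 to 83.7), 67.1% of acetylated-only regions (66.2 to 67.9) and 25.7% of primed regions (25.2 to 26.2). Over the autosomes the share ran from 80.9% to 86.6%, from 63.1% to 70.9% and from 22.1% to 29.4%, with no overlap between classes. FLAG, the tag on NanogBiD, overlapped 87.5%, 76.3% (75.5 to 77.0) and 39.3% (38.7 to 39.9). Both depended on the peaks admitted. With the best 20000 peaks of each list the BRG1 shares were 72.4% of active, 61.0% of acetylated-only and 14.3% of primed regions, and the FLAG shares 62.0%, 51.2% and 15.7%. With summit windows FLAG stood at 76.7%, 48.9% and 28.6%. Primed regions with neither BRG1 nor FLAG made up 56.4%, against 19.6% of acetylated-only and 8.90% of active regions. Where BRG1 was present, its median height was 16 in active, 14 in acetylated-only and 10 in primed regions.

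The location of a region went with BRG1 differently in the classes. Primed promoter regions had BRG1 in 19.5% and FLAG in 25.8%, below the 27.4% and 43.0% of primed distal regions. Active regions had BRG1 in 85.6% at promoters and 81.4% at distal regions, and acetylated-only regions in 67.3% and 67.0%. The 3 primed promoter regions with the highest scores had neither protein. They were at Rassf10, described above, Ptpro, a receptor tyrosine phosphatase (H3K4me1 height 19), and Tmem229a, a membrane protein gene (18). Nor did the 3 primed distal regions with the highest scores, in exons of Fcrlb (chr1:170907240-170908928, height 18) and of B3gnt6 (chr7:98193269-98194696, height 20) and in an intron of the helicase gene Wrn (chr8:33269552-33270657, height 19). This is not the rule among tall primed peaks. Those of 20 to 29 tags had BRG1 in 29.4% at promoters and 48.1% at distal regions, above the class as a whole, and FLAG in 34.6% and 58.4%. The tallest primed region, near Pou5f1, had both, but its H3K4me1 score of 64.9 was below the list median of 83.0. All 6 regions ranked by score carried H3K4me1 in NanogWT as well, at heights from 14 to 27, and at Tmem229a and Ptpro it was joined there by H3K27ac at heights of 12 and 8.

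Since a taller peak of a mark is more often joined by peaks of other targets, the classes were compared within bins of height. Distal H3K4me1 peaks of 12 to 13 tags had BRG1 in 75.9% of active and 26.9% of primed regions, and those of 20 to 29 tags in 92.4% and 48.1%. At promoters the same bins gave 76.2% against 19.96%, and 95.6% against 29.4%. The gap between active and primed regions was thus present at equal H3K4me1 height, though not at equal width. Between the 2 acetylated classes it was smaller. Distal H3K27ac peaks of 12 to 13 tags had BRG1 in 73.9% of active and 64.3% of acetylated-only regions, and promoter peaks of 20 to 29 tags in 94.1% and 79.2%. A wider region has more room to overlap a peak. In the distal H3K4me1 bin of 12 to 13 tags the median width was 1107.5 bp in active and 709 bp in primed regions. In the distal and promoter H3K27ac bins just given it was 1057.5 and 1861 bp in active, and 814 and 1990 bp in acetylated-only regions. The part of width was not tested.

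**Figure D3:**
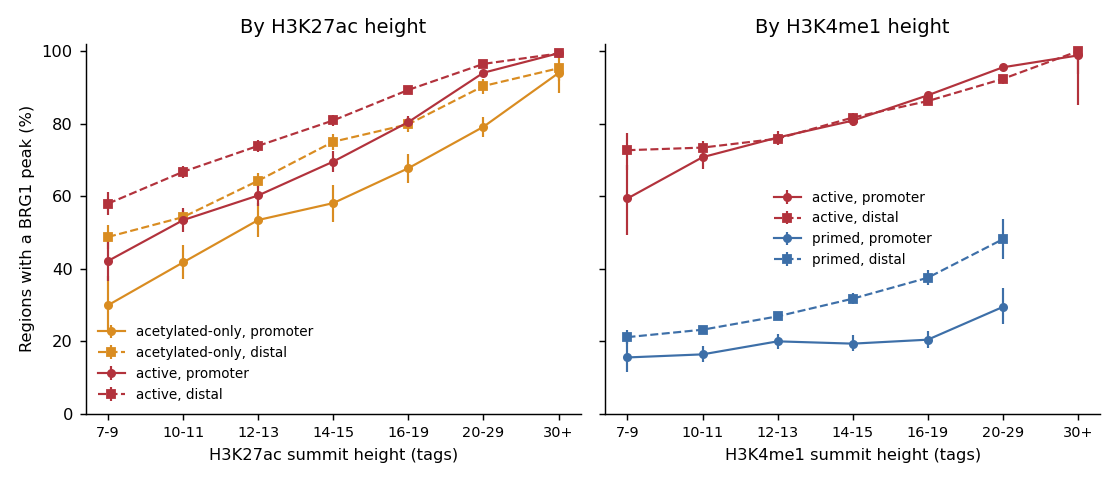
Share of regions with a BRG1 peak (percent) against the summit height of the mark (tags, in bins), for H3K27ac peaks of active and acetylated-only regions and H3K4me1 peaks of active and primed regions, at promoters and at distal regions; bars are Wilson 95% intervals and bins with at least 20 regions are drawn. In the 12 to 13 tag bin of distal H3K4me1 peaks, active regions stood at 75.9% and primed regions at 26.9%.

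In the plot of BRG1 share by height, primed regions lay below active regions, and acetylated-only regions below active ones, in every bin drawn for both. Heights of BRG1 followed those of H3K27ac more than those of H3K4me1 within active regions. The Spearman correlation with BRG1 height was 0.572 for H3K27ac and 0.340 for H3K4me1 across active regions that held a BRG1 peak. For FLAG the values were 0.414 and 0.247. These are correlations across regions of single libraries.

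The regions were next looked up in the lists of NanogWT. Active regions mostly carried both marks there too, primed regions mostly carried H3K4me1 or nothing, and acetylated-only regions were divided. Of active regions, 67.1% had both marks in NanogWT, 19.4% H3K4me1 alone, 5.75% H3K27ac alone and 7.76% neither. Of primed regions, 50.6% had H3K4me1 alone, 9.11% both, 1.37% H3K27ac alone and 38.9% neither. Of acetylated-only regions, 26.4% had both, 23.5% H3K27ac alone, 15.5% H3K4me1 alone and 34.6% neither. Active promoters had the same marks in NanogWT more often than active distal regions. The share of active regions with both marks in NanogWT was 80.2% at promoters and 56.6% at distal regions, and that with H3K4me1 alone was 10.7% and 26.3%.

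**Figure D4:**
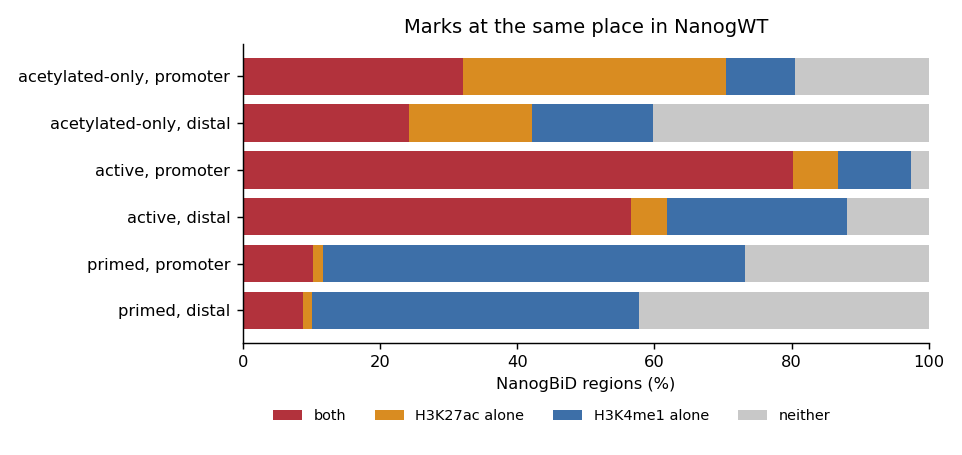
Marks found in NanogWT (both, H3K27ac alone, H3K4me1 alone or neither, as percent of regions, stacked) at acetylated-only, active and primed regions of NanogBiD, at promoters and at distal regions. Both marks were present in NanogWT at 80.2% of active promoter regions and at 8.82% of primed distal regions.

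In the stacked bars of NanogWT marks, acetylated-only regions had the same marks in NanogWT least often, in 38.3% at promoters and 17.9% at distal regions. This order depended on the peaks admitted. Over all locations the share was 23.5% in the full lists, 45.1% with a score of at least 100 and 60.4% with the 20000 highest-scoring peaks, where active regions stood at 59.9%. The 5868 regions that were active in NanogBiD and held H3K4me1 alone in NanogWT are those with an H3K27ac peak added to H3K4me1 in NanogBiD alone. BRG1 overlapped 69.0% of them in NanogBiD and 28.1% in NanogWT, and FLAG 78.6% and 63.8%. At the active regions that overlapped peaks of both marks in NanogWT, BRG1 overlapped 88.1% and 81.9%. At the 2360 primed regions that overlapped peaks of both marks in NanogWT, BRG1 overlapped 33.3% in NanogBiD and 37.4% in NanogWT, and FLAG 45.2% and 63.4%. The median H3K27ac height was 12 at active regions with H3K4me1 alone in NanogWT and 21 at those with both marks. The BRG1 list of NanogBiD is the longer one, 53748 peaks against 30859. With both cut to the 30859 highest-scoring peaks, a setting chosen after seeing the data, the 5868 regions gave 45.1% and 28.1%. The active regions with both marks in NanogWT gave 72.1% and 81.9%, so that the order of the arms turned there, and the 2360 regions gave 12.1% and 37.4%. FLAG lists cut to 58940 peaks each gave 70.1% and 63.8% at the 5868 regions and 31.8% and 63.4% at the 2360 regions.

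The label of the cells was checked against lists of marker genes, by the class of each gene's promoter, 2 kb either side of the gene's start. Paired values after a gene are its H3K27ac and H3K4me1 heights, and a single value is the height of the one mark present. A gene with several classes at its promoter was given active before acetylated-only before primed. Over all 21951 protein-coding genes, 48.3% had an active promoter, 7.89% acetylated-only, 8.68% primed and 35.2% neither mark, and each list is to be read against this. In NanogWT, where the H3K4me1 list is longer and the H3K27ac list shorter, the shares were 45.4% active, 8.07% acetylated-only, 11.9% primed and 34.6% with neither. More primed and fewer active promoters in NanogWT was thus a feature of all genes, and no list is shown to differ from it. Of 20 fibroblast matrix and surface genes, 13 were active, 4 acetylated-only, 2 primed and 1 without a mark. The intermediate filament gene Vim had heights of 50 for H3K27ac and 17 for H3K4me1, fibronectin (Fn1) 33 and 17, and the collagen gene Col5a1 32 and 19. Col1a1 was active (24 and 17), Col1a2 acetylated-only (19), Thy1 and Sparc primed (H3K4me1 16 and 15), and Pdgfra, a receptor typical of fibroblasts, had no peak of either mark. Of 7 blood cell markers 2 were active, Ptprc (24 and 10) and Cd68, and the other 5, which include Adgre1, Cd3e, Itgam and Csf1r, had neither mark. Of 6 endothelial markers 4 were active, Tek (20 and 21), Erg, Kdr and Cdh5, with none at Pecam1 and Tie1. Of 6 neuronal markers 4 were active and 2 primed, and of 4 liver markers 1 was active (Apoa1), 1 primed (Ttr), and Alb and Afp had neither. The active share was 65% of fibroblast genes and 66.7% of both endothelial and neuronal markers, so this check does not tell these cell types apart. Marks at a promoter can be present without transcription, so these counts do not measure other cell types, and their part in the results was not tested.

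Genes of the fibroblast's contractile and transcriptional programme were mostly active. Of 13 contractile and YAP target genes 11 were active, 1 primed and 1 without a mark, with the focal adhesion gene Zyx at 52 and 17, smooth muscle actin (Acta2) at 43 and 21 and alpha-actinin (Actn1) at 42 and 20. Of 15 mesenchymal transcription factors 10 were active, with Twist1 at 37 and 16 and Tead1, a partner of YAP, at 32 and 18. The AP-1 factors were divided: 5 of 10 were active, including Jun (51 and 19) and Jund (50 and 22), and 4 acetylated-only, including Fos (H3K27ac 55), Junb (48) and Fosl2 (44). Junb and Fosl2 had H3K4me1 peaks in NanogWT, with heights of 27 and 20, and Fos had none in either arm. In NanogWT 7 of the 10 were active and 1 acetylated-only.

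Pluripotency genes were active in 8 of 25 cases, primed in 5 and without either mark in 12. In NanogWT 5 were active, 10 primed and 10 without either mark. Active in both arms were the factors Klf4 (37 and 19), Klf2 (34 and 16), Tbx3 (32 and 18), Klf5 (24 and 18) and Tfcp2l1 (16 and 16). Active in NanogBiD and primed in NanogWT were 3 genes. The zinc finger factor Sall4 (chr2:168748332-168767943) had heights of 14 for H3K27ac, 12 for H3K4me1, 11 for BRG1 and 14 for FLAG, where NanogWT had H3K4me1 alone, at 18. Tdgf1, the Nodal co-receptor Cripto (chr9:110939603-110946158), had 20, 13, 24 and 33, with H3K4me1 alone among the marks in NanogWT, at 12. Dppa3 (Stella, chr6:122626410-122630272) had 11 for H3K27ac, 15 for H3K4me1 and 11 for FLAG, with H3K4me1 at 16 in NanogWT, and its region lay more than 1 kb from the start. Primed were Sox2 (23), Utf1 (21), Nr5a2 (12), Prdm14 (10) and Dnmt3l (10), and Nanog, Pou5f1, Esrrb, Zfp42 and Lin28a were among those with neither mark at the promoter.

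Epithelial and germ layer genes held the largest primed shares of the 15 lists. Of 18 epithelial genes 8 were primed, 5 active, 2 acetylated-only and 3 without a mark. In NanogWT 12 were primed, 4 active, 1 acetylated-only and 1 without a mark. The adhesion genes Cdh1 (14) and Epcam (11), the splicing regulator Esrp1 (18) and the tight junction gene Cldn7 (16) were primed. The keratin gene Krt8 (11 and 17) and the claudin gene Cldn3 (22 and 18) were active in NanogBiD and primed in NanogWT, with BRG1 at 14 and 18 in NanogBiD and 16 and 11 in NanogWT. Of 19 germ layer and trophoblast regulators 10 were primed, which is 52.6% beside 8.68% of all protein-coding genes, 3 active and 6 without a mark. Among the primed were Gsc (19), a mesendoderm factor, Cdx2 and Tfap2c (17 each), trophoblast factors, Foxa2 (16) and Sox17 (15), endoderm factors, and Pax3 (15). Eomes, active in NanogBiD (11 and 18), was primed in NanogWT (16). In NanogWT 14 of the 19 were primed, 1 active, 1 acetylated-only and 3 without a mark. A BRG1 peak was found at 4 of these 19 promoters, against 15 of the 20 fibroblast genes and 50.7% of all protein-coding promoters.

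**Figure D5:**
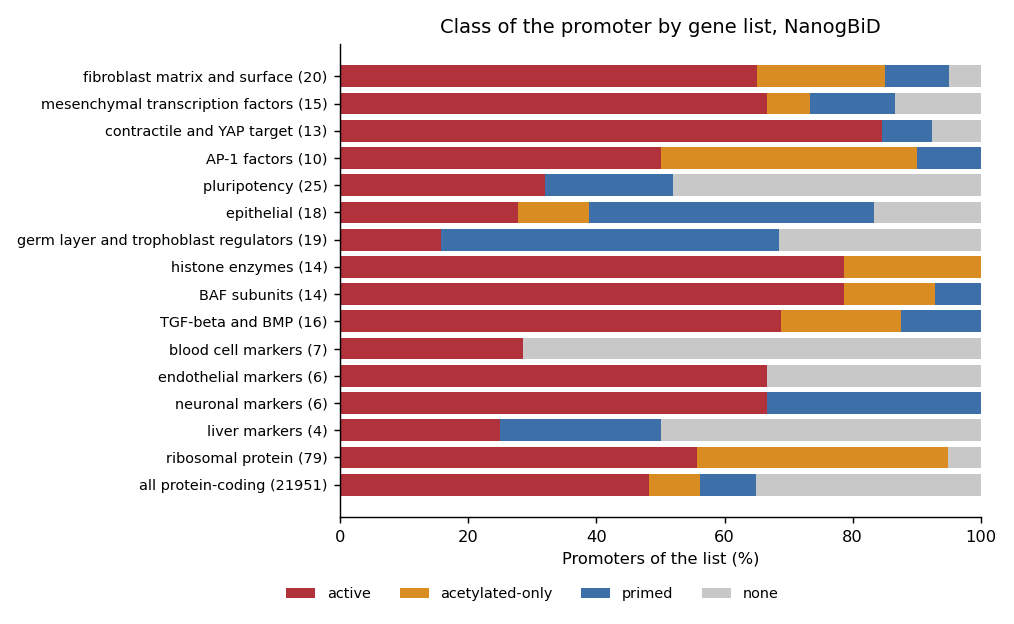
Percent of each gene list's promoters in each class in NanogBiD (active, acetylated-only, primed, neither; stacked), with all 21951 protein-coding promoters for comparison. Primed promoters made up 52.6% of germ layer and trophoblast regulators and 0 of 79 ribosomal protein genes.

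The stacked bars by gene list show a further class that was not spread evenly. Ribosomal protein genes, among the most transcribed of all, were acetylated-only in 31 of 79 cases, 39.2% beside 7.89% of all protein-coding genes. They were active in 44 cases, primed in none and without either mark in 4, which include the tissue-restricted copies Rpl3l, Rpl10l and Rpl39l. The tallest acetylated-only promoters among them were Rpl19 (H3K27ac 50) and Rps28 (46), and Rpl21 (57 and 22) was the tallest active one. NanogWT had 34 acetylated-only and 41 active. BRG1 was at 71 of the 79, beside 50.7% of all protein-coding promoters. Retrocopies of these genes are frequent in the genome and tags from them can be placed at the source gene or the reverse.

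Genes for the writers, erasers and readers of histone acetylation and H3K4 methylation had acetylated promoters throughout. Of the 14 listed, 11 were active and 3 acetylated-only. Among them were the acetyltransferase genes Crebbp (51 and 20) and Ep300, acetylated-only at 44, the deacetylase gene Hdac2 (55 and 21) and the bromodomain reader gene Brd2 (52 and 17). Of 14 BAF subunit genes 11 were active, including Smarca4 itself (44 and 25) and Ss18 (43 and 19), 2 acetylated-only, including Arid1b (29), and Smarcd3 was primed (14). Of 16 TGF-beta and BMP pathway genes 11 were active, 3 acetylated-only, including the inhibitor Smad7 (31) and the receptor Bmpr1a (47), and 2 primed, the ligands Bmp2 (18) and Bmp4 (17).

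Distal regions were assigned to the nearest protein-coding start within 100 kb. This placed 11395 active, 13040 primed and 5602 acetylated-only regions, and 6688 genes had at least 1 distal active region. Among the 10 genes with the most distal active regions were Atxn1 (10), Lgalsl (9), Smad7 (9) and Gas1, a growth arrest gene (8). Pard6b, Rbm20 and Zfp217 (8 each) and Arid1b and Ccn1 (7 each), the latter a YAP target that encodes a matrix protein, were also among them. The most distal primed regions were next to Col5a1 (10), which also had 6 active ones, and Pax2 (10), a kidney and neural factor whose promoter was itself primed at 17. Casz1, Ctif, Gm26897, Peli2 and Slc38a4 (9 each) and Adarb1, Agap1 and Gsdme (8 each) followed, and Adarb1 had 0 distal active regions. With a limit of 50 kb, 6 of the 10 active and 4 of the 10 primed genes stayed among the first 10, so the order within these lists depends on the limit.

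A few of the highest-scoring regions held tRNA genes, which RNA polymerase III transcribes. Over all distal regions, 0.226% of active, 0.295% of acetylated-only and 0.025% of primed ones held a tRNA gene. Of the 100 highest-scoring distal regions of each class, 2 active, 4 acetylated-only and 0 primed regions held one. The 2 active ones, on chromosome 13, (chr13:23400454-23403057, with 49 for H3K27ac, 36 for H3K4me1, 32 for BRG1 and 39 for FLAG, and chr13:23410643-23413241, with 33, 26, 24 and 24) held tRNA genes for alanine and valine and lay near the nucleolar protein gene Abt1. The other distal active region among the first 3 by score (chr6:47648727-47651927, with 35, 37, 33 and 34) held none and lay 55.888 kb from Ezh2, the H3K27 methyltransferase. The first acetylated-only promoter region (chr1:165641348-165643385, H3K27ac 44) held 2 tRNA genes for proline. Of 403 tRNA genes in the RefSeq annotation, 124 lay in active regions (30.8%), 71 in acetylated-only regions (17.6%), 5 in primed regions (1.24%) and 203 in none (50.4%). The 38 distal active regions that held one had a median H3K27ac height of 22 against 15 in the others, and 36 of the 38 had a BRG1 peak (94.7%, 82.7 to 98.5). Over all distal active regions the BRG1 share was 81.4%, and over those with H3K27ac heights of 20 to 29 it was 96.5%. The tallest region of all, chr17:39842992-39848857 over the noncoding gene Gm26917, reached 103 for H3K27ac, 65 for H3K4me1 and 163 for BRG1. It carries sequence of the ribosomal RNA repeat, so tags of other repeat copies may be placed there. A peak lay there in all 8 lists.

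The acetylated-only regions with the highest scores, 3 at promoters and 3 at distal sites, all had both BRG1 and FLAG. At Stam2, an endosomal sorting gene (chr2:52741355-52743818), the heights were 40 for H3K27ac, 22 for BRG1 and 24 for FLAG, and at a site 6.771 kb from B4galt3 (chr1:171261797-171264507) they were 33, 43 and 52. In NanogWT both carried H3K4me1, with heights of 11 and 19. An intron of Kiz (chr2:146883788-146885789, H3K27ac 19) held the only one of these regions without an H3K4me1 peak in NanogWT. Over the whole class 26.4% had both marks there, so these few regions do not stand for it. Few acetylated-only regions had the other mark just beside them: 8.43% lay within 1 kb of an H3K4me1 peak and 28.4% within 5 kb, and 4.82% of primed regions lay within 1 kb of an H3K27ac peak and 16.9% within 5 kb.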

How the data were processed

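Per the labels and the methods, the authors trimmed reads with Trim Galore 0.6.4, aligned them to mm10 with Bowtie2 2.4.5, filtered them with SAMtools 1.16.1, merged replicates and called peaks with MACS 1.4.2, and no control library is named in these sources, nor is the number of replicates merged. The deposited peak score is the significance score of the caller (lowest value 50.0 in each list). The deposited summit signal is the tag pileup, used here as the height, and is not scaled to depth, which is unknown.

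Peaks of the 2 marks were merged with Python 3.11.15, numpy 2.4.6 and pandas 2.3.3, and motifs and chromosome ranges were limited to chromosomes 1 to 19 and X. Overlaps needed 1 bp. Starts were those of GENCODE M21. Scripts were tested on simulated data. Examples from gene lists were those with the highest H3K27ac and then H3K4me1 summits and those with neither mark, and regions were the 3 with the highest scores per class and location, leaving out chromosome 18. List members whose class differed between arms, other primed or acetylated-only members, tRNA genes and the distal regions printed for their AP-1 match were singled out after their values were seen. Some genes that the rule selects are not reported here. Regions, gene lists and rules were chosen with earlier results of these data known. Settings varied were the peak set (scores from 100 up, the best 20000 peaks of a list, heights from 15 up), summit windows in place of peaks, merging across 500 bp, a promoter size of 1 kb, motif searches within 50 bp of the summit and, added after seeing the data, BRG1 and FLAG lists of equal length.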

Additional observations from a re-analysis of the deposited data

How the results depend on the processing

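Values below are for acetylated-only, active and primed regions in that order. The BRG1 share was 70.6%, 80.0% and 20.9% with a score of at least 100, 61.0%, 72.4% and 14.3% with the 20000 highest-scoring peaks, 44.9%, 73.0% and 21.9% with summit windows (100 bp to each side), and 51.4%, 69.1% and 13.5% with a height of at least 15. The promoter share was 46.6%, 58.4% and 33.4% with the score limit, 53.7%, 61.9% and 33.5% with the top peaks, 44.2%, 59.9% and 33.6% with the height limit, 35.2%, 40.4% and 28.2% with summit windows and 23.1%, 41.2% and 16.7% with promoters of 1 kb, and 20.3% of primed regions when peaks were merged across 500 bp. The orders of the classes by BRG1, FLAG and promoter share were kept in every setting run. The share with the same marks in NanogWT was 45.1% in acetylated-only and 58.8% in primed regions with the score limit, 60.4%, 59.9% and 45.4% with the top peaks, so that acetylated-only regions came before active ones, 29.6%, 69.9% and 56.0% with the height limit, and 21.9%, 47.0% and 34.0% with summit windows. Class sizes moved most. Active and primed regions numbered 11909 and 8304 with the score limit, 10369 and 9613 with the top peaks, and 13626 and 9857 with the height limit, and in all 3 settings primed regions were fewer than acetylated-only regions (12738, 9631 and 10703). With summit windows acetylated-only regions numbered 22144, and primed regions (36702) exceeded active ones (20454). The median width was 1744 bp in active and 1783 bp in acetylated-only regions with the top peaks. Of 72 orders compared, 66 were kept and 6 turned, and the causes were not tested.

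No paired analysis was possible because each target had 1 merged list per arm. Heights of low peaks rest on few tags, so a mark without a peak is not shown to be absent at this depth.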

Other observations

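Chromosome X had few regions, and among them the acetylated-only class was the largest. It held 927 regions, 5.42 per Mb, against 22.1 to 36.0 per Mb on the autosomes. Acetylated-only regions made up 47.2% of them (44.1 to 50.5), active regions 34.8% and primed regions 17.9%. Over the autosomes these shares ran from 14.9% to 20.5%, from 42.1% to 48.2% and from 35.3% to 41.1%, so X lay outside all 3 ranges. X held 0.868% of the H3K4me1 peaks and 1.79% of the H3K27ac peaks in NanogBiD, and 0.854% and 1.88% in NanogWT, so the imbalance of the marks was present in both arms. The MEFs came from embryos of either sex, and the share of each in the libraries is not given in the sources used here.

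Introduced sequences can add tags at Pou5f1 and Nanog. The retroviral cDNAs hold exons only, and the reporter holds Pou5f1 regulatory sequence whose extent is not given in the sources used here. All peaks at Pou5f1 had their summits outside its exons, where tags of the reporter and of the locus itself cannot be told apart. The tallest primed region of all, chr17:35510707-35515248, lay past the end of Pou5f1, with its summit 2648 bp beyond it. Its heights were 78 for H3K4me1, 67 for BRG1 and 65 for FLAG, and the next tallest primed region reached 29. Its peak scores were 64.9 for H3K4me1, 70.2 for BRG1 and 127 for FLAG, against list medians of 83.0, 107 and 119. NanogWT had no H3K4me1 peak there, and had one of height 46 upstream of the gene (chr17:35500115-35504826). The score of that peak was 54.9, where 50 is the lowest, so the difference between arms at this locus rests on low scores. In the last exon of Nanog, where tags of the cDNA and of the gene cannot be told apart, an H3K27ac peak had a height of 20 in NanogBiD and 47 in NanogWT. Upstream of Nanog, outside the cDNA, a distal region was active in both arms, with its H3K27ac peak at chr6:122701878-122703331. Its heights were 24 for H3K27ac, 15 for H3K4me1, 15 for BRG1 and 13 for FLAG in NanogBiD, and 20, 16, 10 and 9 in NanogWT.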
